A study of Homo sapiens with 6 samples.

Results

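Reference genes are the transcripts against which other transcripts are measured, and 8 that are in wide use were followed here: ACTB, TBP, PPIA, YWHAZ, GUSB, HPRT1, TUBB and RPLP0. They were taken as the rows of the deposited expression table that carry these symbols, and all 8 were found among its 20289 genes. RNA had been sequenced from 6 libraries labelled as T24, an established human bladder cancer cell line grown in RPMI medium with serum. Cells of 3 libraries had received an empty pcDNA3.1 plasmid by lipofection (the Vector label), and cells of the other 3 the same plasmid carrying LINC00665, a long non-coding RNA, for its overexpression (the LINC00665 label). The labels name 3 independent experiments of this 1 line, and the purpose they state is the mechanism of LINC00665 in the spread of bladder cancer to lymph nodes. The comparison made here asks how far each reference gene held its level between the labels and over all 6 libraries.

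In quantitative PCR the level of a target is divided by that of a reference gene in the same sample, so any change of the reference passes into the result with its sign turned. The genes in common use come from basic functions of the cell: ACTB encodes beta-actin of the cytoskeleton, TUBB a beta-tubulin of microtubules, PPIA cyclophilin A, which helps proteins fold, and RPLP0 the protein at the base of the ribosomal stalk. YWHAZ encodes a 14-3-3 adaptor that binds phosphorylated proteins, GUSB the lysosomal enzyme beta-glucuronidase, HPRT1 an enzyme that recycles purine bases, and TBP the protein that binds the TATA box and nucleates the transcription machinery. None of these functions fixes the amount of the transcript, and actin, tubulin and purine genes are known to follow cell shape, division and growth.

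For the pair of members whose ratio moved least between the labels (PPIA and RPLP0) and the pair whose ratio moved most (GUSB and HPRT1), the 120 bases ending just before the RefSeq start are shown, 5′ to 3′ on the gene's strand, with motif letters in capitals.
PPIA: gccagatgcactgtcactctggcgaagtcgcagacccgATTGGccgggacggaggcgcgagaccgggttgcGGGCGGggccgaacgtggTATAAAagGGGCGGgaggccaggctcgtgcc
RPLP0: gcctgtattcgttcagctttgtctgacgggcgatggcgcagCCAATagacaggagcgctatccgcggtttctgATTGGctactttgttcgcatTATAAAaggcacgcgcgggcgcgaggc
GUSB: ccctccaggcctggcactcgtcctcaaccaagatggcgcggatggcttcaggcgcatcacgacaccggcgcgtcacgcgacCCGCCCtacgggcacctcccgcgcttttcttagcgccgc
HPRT1: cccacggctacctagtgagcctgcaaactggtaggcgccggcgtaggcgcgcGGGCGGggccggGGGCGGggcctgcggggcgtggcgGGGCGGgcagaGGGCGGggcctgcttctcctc
The capitals mark 3 motifs searched on both strands: the TATA box (TATAAA), the CCAAT box (CCAAT) and the GC box (GGGCGG), the last of which can lie beside or share bases with other GC-rich stretches. The windows lie at chr7:44796561-44796680 (PPIA, plus strand), chr12:120201112-120201231 (RPLP0, minus strand), chr7:65982214-65982333 (GUSB, minus strand) and chrX:134460045-134460164 (HPRT1, plus strand) of GRCh38.p14, from RefSeq. PPIA and RPLP0 each held a TATA box and at least 1 CCAAT box, while GUSB and HPRT1 held neither. GC boxes did not separate the pairs, with 2 in PPIA, 0 in RPLP0, 1 in GUSB and 4 in HPRT1. Of 35116 RefSeq promoters cut to the same window, 5.63% held a TATA box, 20.4% a CCAAT box and 34.0% a GC box. TBP and TUBB were the other members matched in that reference, 6 of 8 in all, and neither held a TATA or CCAAT box. The ratios of TBP to GUSB and of HPRT1 to TUBB, genes without these boxes, also overlapped between the labels (shifts of -0.05 and -0.13 log2). That of GUSB to HPRT1, likewise without them, did not (1.58). No ratio of PPIA or RPLP0 to a matched member without the boxes overlapped. Whether the boxes have a part in these shifts was not tested. A match of letters is a description of the sequence, not of a factor bound there. The start also differs between annotations. By the GENCODE v29 bounds given below, the window of PPIA ends at the gene's start and that of RPLP0 lies inside the gene. Those of GUSB and HPRT1 reach into their genes, so the windows are not placed alike and a missing box may lie outside them.

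The libraries held 17289788 to 22725687 expected counts in all, with 14183 to 14286 genes seen per Vector library and 15453 to 15645 per LINC00665 library. Levels as log2 CPM (counts-per-million of the library's total) correlated at 0.659 to 0.680 (Pearson, over genes) between libraries of different labels and at 0.967 to 0.990 between those of the same label. A check for mixed-up samples found that 3 of the 6 libraries did not match the labelled line. No comparison without these is possible, so that the line and the plasmid cannot be told apart in any result that follows. Of 15 urothelial markers, 4 reached 1 CPM in the Vector libraries and 12 in the LINC00665 libraries, and their summed level was 18.9 to 21.2 against 3898 to 4664 CPM. KRT20 was at 0 counts in all 6 libraries, and UPK3A, KRT13 and GRHL3 in the Vector libraries. Of 15 renal tubule markers, 4 reached 1 CPM under each label, summing to 357.3 to 477.5 CPM in the Vector libraries, most of it PAX8, and to 35.0 to 39.4 CPM in the LINC00665 libraries. Fibroblast markers summed to 2.19 to 4.39 and 231.3 to 265.0 CPM, with 1 and 7 of 10 at 1 CPM. Endothelial markers summed to 0.799 to 2.63 and 15.5 to 16.6 CPM (1 and 4 of 10), and leukocyte markers to 11.2 to 18.1 and 26.1 to 35.6 CPM (1 and 3 of 10). The part of these differences in the levels of the reference genes was not tested. In bulk RNA, a change in the make-up of the cells and a change of RNA per cell cannot be told apart. LINC00665 itself has no row in the table and its level was not analysed here.

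Of the 8 reference genes, 7 differed between the labels, with GUSB, TBP, PPIA and RPLP0 higher and HPRT1, TUBB and YWHAZ lower in the LINC00665 libraries, and ACTB alone did not pass (edgeR's quasi-likelihood test, Benjamini-Hochberg adjusted p under 0.05 over 13552 genes tested). Of all tested genes 63.5% passed the same test, 34.2% as higher and 29.3% as lower, so a share of 7 in 8 stands on a comparison in which most genes differed. The changes were modest in size: log2 fold changes, LINC00665 minus Vector label, ran from -0.76 to 0.82, the median absolute value was 0.60 against 0.82 over all tested genes, and 0 of the 8 both passed and reached 2-fold, which 42.0% of tested genes did. As no member reached 2-fold, that count is 0 at any p threshold, and it was also 0 by DESeq2. CPM of the labels did not overlap for 7 members, as for 71.3% of tested genes. On the authors' FPKM values, tested with limma-trend on log2(FPKM + 1), 5 members passed, against 63.9% of tested genes. The calls of PPIA and RPLP0 were the ones lost there, with adjusted p = 0.37 and 0.21 (limma-trend). The count of 7 fell to 4 when the library LINC00665 2 was left out and to 4 at an adjusted p of 0.01. With scaling by total counts 5 passed, 2 higher and 3 lower.

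**Figure D1:**
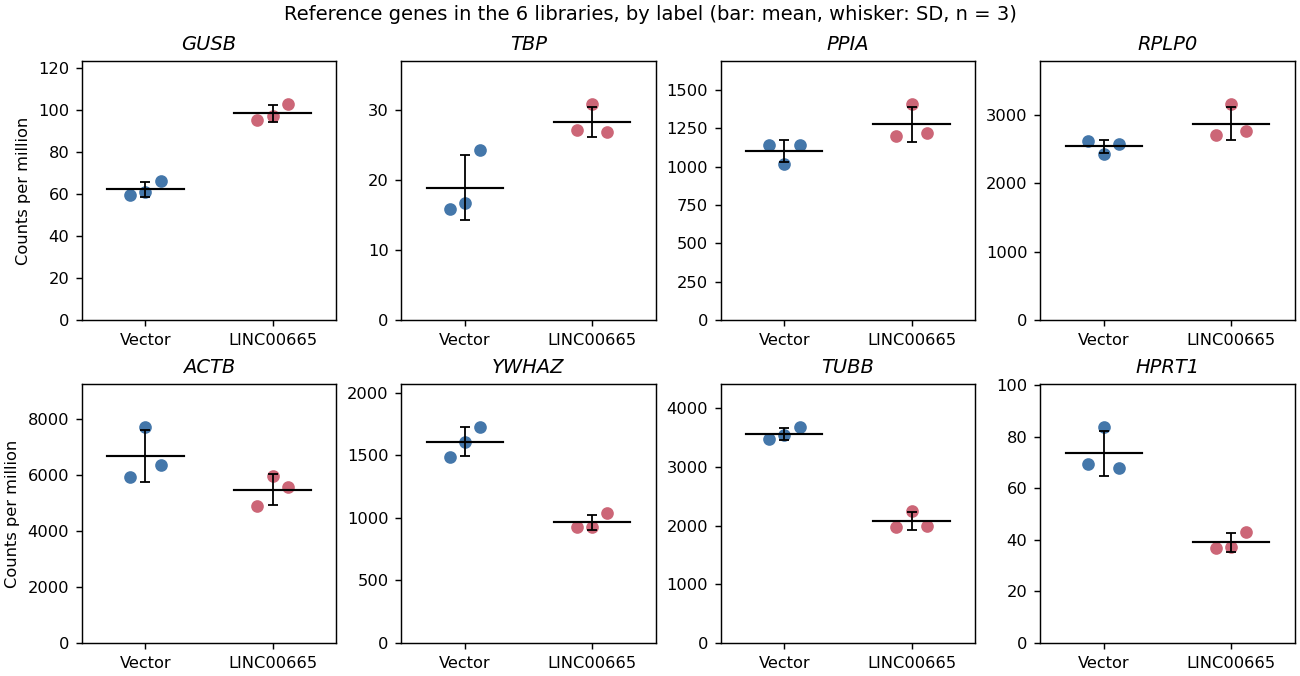
CPM (vertical axes, each from 0) of the 8 reference genes in the 3 Vector and 3 LINC00665 libraries. Points are libraries, bars are means and whiskers SD (n = 3). GUSB and TBP are higher and HPRT1, TUBB and YWHAZ lower in every LINC00665 library than in any Vector library, PPIA and RPLP0 are apart by little, and ACTB overlaps.

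The order of the transcripts by level per length shows what range the 8 genes cover. Mean FPKM in the Vector libraries descended from ACTB (3692 ± 510.7, SD, n = 3) through RPLP0 (2365 ± 96.0), PPIA (1643 ± 118.5), TUBB (1418 ± 39.4) and YWHAZ (688.6 ± 57.9) to HPRT1 (52.7 ± 6.30), GUSB (28.8 ± 1.97) and TBP (12.2 ± 3.25). No neighbours in that order overlapped in FPKM. Under the LINC00665 label the order was ACTB (3041 ± 306.0), RPLP0 (2677 ± 229.6), PPIA (1805 ± 181.1), TUBB (823.6 ± 61.1), YWHAZ (443.6 ± 26.5), GUSB (45.8 ± 1.67), HPRT1 (27.9 ± 2.57) and TBP (19.5 ± 2.34). GUSB and HPRT1 had changed places, and ACTB (2711 to 3316 FPKM) and RPLP0 (2515 to 2940 FPKM) now overlapped. The 8 genes together held 1.48 to 1.65% of all counts in the Vector libraries and 1.18 to 1.39% in the LINC00665 libraries.

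ACTB (ENSG00000075624, chr7:5527147-5563784 of GRCh38, minus strand in GENCODE v29, protein-coding) was the most abundant member. It stood at 5931, 7692 and 6351 CPM in the Vector libraries 1 to 3 and at 4882, 5969 and 5556 CPM in the LINC00665 libraries 1 to 3. The labels overlap, since LINC00665 2 lies above Vector 1. Beta-actin's log2 fold change after scaling was -0.12 (SE 0.16, 95% interval -0.48 to 0.24, edgeR adjusted p = 0.52), which leaves room for a fall of up to 0.48 or a rise of up to 0.24 on the log2 scale. Scaling by total counts gave -0.28 (adjusted p = 0.11), and without the library Vector 2, the highest, the difference was 0.00. ACTB is thus the member whose label difference cannot be seen over the spread of its own replicates, which was 0.21 in Vector and 0.17 in LINC00665 libraries (SD of log2 CPM).

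RPLP0 and PPIA moved by about the same amount. PPIA (ENSG00000196262, chr7:44796680-44824564, plus strand) had 1144, 1019 and 1143 CPM in the Vector libraries and 1202, 1408 and 1217 CPM in the LINC00665 libraries. The lowest LINC00665 library lay only just above the highest Vector library, and LINC00665 2 was the highest of all. Cyclophilin A thus rose by 0.38 on the log2 scale (SE 0.14, 95% interval 0.06 to 0.69, edgeR adjusted p = 0.040). RPLP0 (ENSG00000089157, chr12:120196686-120201235, minus strand) had 2617, 2430 and 2576 CPM in the Vector libraries and 2702, 3159 and 2766 CPM in the LINC00665 libraries. Again LINC00665 2 was the highest and the groups were apart by little. The stalk protein's log2 fold change was 0.34 (SE 0.13, 95% interval 0.04 to 0.64, edgeR adjusted p = 0.048).

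Both calls sit near the threshold and rest on the scaling. With total counts in place of the trimmed mean of M-values the log2 fold change was 0.21 for PPIA and 0.18 for RPLP0 (edgeR adjusted p = 0.18 and 0.21), and upper quartile scaling ended both calls as well (0.087 and 0.11). Leaving out 1 library ended the call of RPLP0 in each of 6 cases (adjusted p 0.068 to 0.12) and that of PPIA in 5 of 6 (0.071 to 0.12), while without Vector 3 it was kept (0.045). The trimmed-mean scaling factors ran from 1.042 to 1.072 in the Vector and from 0.918 to 0.972 in the LINC00665 libraries, so that leaving them out lowers every gene's LINC00665 level against its Vector level by the same amount.

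GUSB showed the largest rise among the 8. This gene (ENSG00000169919, chr7:65960684-65982314, minus strand) had 59.6, 60.6 and 66.2 CPM in the Vector libraries and 95.1, 97.0 and 102.6 CPM in the LINC00665 libraries. All 3 LINC00665 libraries lay well above all 3 Vector libraries, and the spread inside a label was small (SD of log2 CPM 0.08 and 0.04). The log2 fold change was 0.82, or 1.77-fold (SE 0.13, 95% interval 0.53 to 1.12, edgeR adjusted p = 0.00067). Relative to its pooled SD within labels of 0.07, the SD of GUSB over the 6 libraries was 6.82 times as large, the highest ratio among the members.

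TBP, the least abundant member and a subunit of the general factor TFIID, rose by a like amount with more noise. The gene (ENSG00000112592, chr6:170554302-170572870, plus strand) had 15.8, 16.7 and 24.2 CPM in the Vector libraries and 27.1, 30.8 and 26.9 CPM in the LINC00665 libraries. Vector 3 stood apart from the other Vector libraries and came close to the LINC00665 libraries without reaching them. The log2 fold change was 0.75 (SE 0.20, 95% interval 0.28 to 1.21, edgeR adjusted p = 0.012), and without LINC00665 2 it was 0.64 with adjusted p = 0.052. In counts, TBP rested on 288.0 to 639.0 per library, against 106192 to 132995 for ACTB.

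The 3 members that fell were HPRT1, TUBB and YWHAZ. HPRT1 (ENSG00000165704, chrX:134460153-134520513, plus strand) had 69.3, 83.7 and 67.8 CPM in the Vector libraries and 36.7, 37.2 and 43.1 CPM in the LINC00665 libraries. Every Vector library lay well above every LINC00665 library, with Vector 2 the highest. The purine salvage enzyme fell by 0.76 on the log2 scale (SE 0.15, 95% interval -1.11 to -0.41, edgeR adjusted p = 0.0026), and its highest and lowest CPM differed 2.28-fold, the widest range of the 8.

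TUBB (ENSG00000196230, chr6:30720201-30725426, plus strand) had 3484, 3540 and 3677 CPM in the Vector libraries and 1976, 2250 and 1991 CPM in the LINC00665 libraries. The Vector libraries lay close together (SD of log2 CPM 0.05) and far above the LINC00665 libraries. The beta-tubulin transcript fell by 0.62 on the log2 scale (SE 0.13, 95% interval -0.92 to -0.32, edgeR adjusted p = 0.0032). YWHAZ (ENSG00000164924, chr8:100916525-100953388, minus strand) had 1490, 1610 and 1724 CPM in the Vector libraries and 928.4, 924.4 and 1036 CPM in the LINC00665 libraries. No library of one label reached the range of the other. This 14-3-3 transcript fell by 0.58 on the log2 scale (SE 0.13, 95% interval -0.87 to -0.29, edgeR adjusted p = 0.0042).

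The calls of GUSB, HPRT1, TUBB and YWHAZ held under every scaling, filter, tool and left-out library tried, with the direction kept. For single genes, an exact two-sided permutation test of log2 CPM over 3 against 3 libraries cannot go below p = 0.10, and this was its value for the 7 members other than ACTB, which had p = 0.20. Most members have annotated copies elsewhere in the genome. GENCODE lists 88 pseudogenes named after PPIA, 11 after GUSB, 10 after ACTB, 8 each after YWHAZ and TUBB, 5 after RPLP0, 3 after HPRT1 and 0 after TBP, and none of these has a row in the table. How reads that fit a gene and its copies were counted is not given in the sources used here, so the levels of the members with many copies are uncertain to that extent.

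The deposited FPKM values add a second reading, because FPKM also divides by a length. The ratio of CPM to FPKM gives that length if both use the same total, and it was the same under both labels to within 1% for ACTB, GUSB, HPRT1, TUBB and RPLP0 (at least 99.6% of the Vector value). It was shorter under the LINC00665 label for YWHAZ (2.28 to 2.39 kb in Vector and 2.15 to 2.19 kb in LINC00665 libraries, 92.9%) and longer for PPIA (0.667 to 0.677 and 0.699 to 0.712 kb, 105.4%). For TBP the means differed likewise (93.5%) while the libraries of the labels overlapped. Read as FPKM, the fall of YWHAZ was 688.6 ± 57.9 to 443.6 ± 26.5 (SD, n = 3). The label difference of PPIA was 0.13 on the log2(FPKM + 1) scale, with 1507 to 1716 FPKM in Vector and 1694 to 2014 FPKM in LINC00665 libraries overlapping. FPKM was used without trimmed-mean scaling, so scaling as well as length differs from the edgeR value of 0.38. With total counts, which also leave that scaling out, edgeR gave 0.21 for PPIA. For RPLP0, whose length was the same, total counts and FPKM both gave 0.18, against 0.34 with trimmed-mean scaling.

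Stability over all 6 libraries, whatever their label, was read from the SD of log2 CPM after scaling. It was lowest for ACTB (0.18), RPLP0 (0.21) and PPIA (0.23), then 0.33 for YWHAZ, 0.35 for TUBB, 0.43 for HPRT1, 0.45 for GUSB and 0.48 for TBP. Over all tested genes the median was 0.55. The order at the top turned on the scaling. With total counts, RPLP0 (0.13) and PPIA (0.15) lay below ACTB (0.22), and the same 3 genes led in the same new order with upper quartile factors, with FPKM and without the library LINC00665 2. At the other end, HPRT1 had the largest SD with total counts (0.52) and on log2(FPKM + 1) (0.50), and TBP with trimmed-mean scaling.

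Unscaled CPM gave coefficients of variation over the 6 libraries of 9.20% for RPLP0, 10.7% for PPIA and 15.5% for ACTB, then 25.0% for GUSB, 25.8% for TBP, 28.2% for YWHAZ, 29.3% for TUBB and 35.3% for HPRT1. On FPKM they ran from 9.22% (RPLP0) and 9.46% (PPIA) to 35.3% (HPRT1). Many other abundant genes varied less than the members. Of 4420 tested genes with a mean of at least 50 CPM, 552 had a smaller SD than ACTB (12.5%), 741 a smaller one than RPLP0 and 912 a smaller one than PPIA. The corresponding shares were 35.2% for YWHAZ, 39.5% for TUBB, 49.6% for HPRT1, 52.4% for GUSB and 55.3% for TBP, whose own mean lies under that level.

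**Figure D2:**
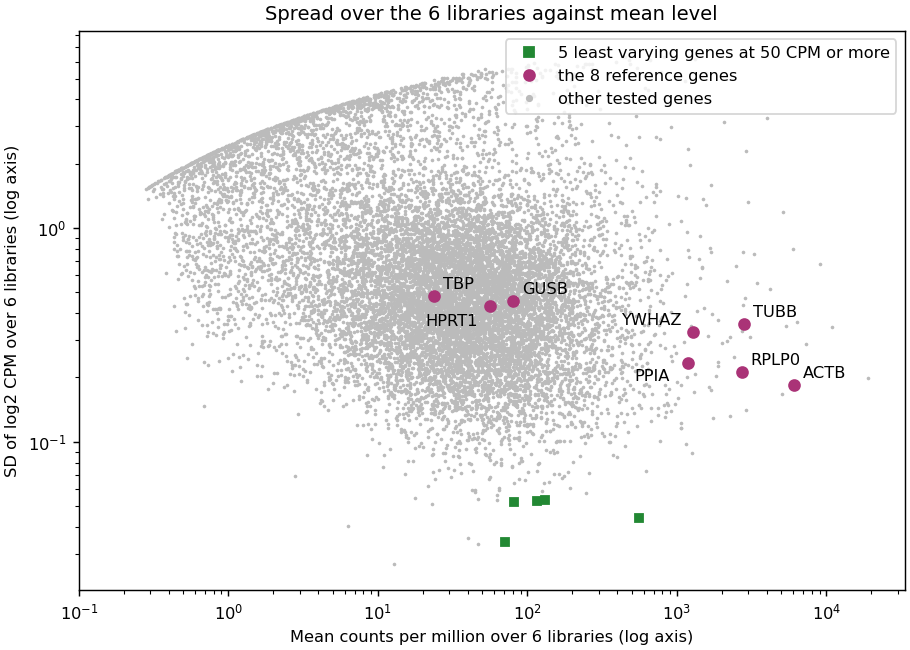
SD of log2 CPM over the 6 libraries (vertical, log axis) against mean CPM (horizontal, log axis) for the tested genes that carry a symbol. The 8 reference genes lie between 0.18 (ACTB) and 0.48 (TBP), and the 5 least varying genes at 50 CPM or more (squares) between 0.034 and 0.053.

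The genes with the smallest spread at that abundance were TXNL1, a thioredoxin-like protein of the proteasome (SD 0.034, 63.0 to 78.4 CPM), DDX5, an RNA helicase (0.044, 499.4 to 600.5 CPM), CDK11B, a kinase (0.053, 77.1 to 86.9 CPM), TMEM230 (0.053, 108.6 to 127.7 CPM) and LSM12 (0.053, 115.4 to 140.9 CPM). They were taken for their small spread in these libraries, so their small label differences (log2 fold changes from -0.02 to 0.05) are a description and no test of them. The SD of ACTB in the same libraries was 0.18. For each member the tested gene of at least 5 CPM with the nearest profile over the 6 libraries was also found, by the root mean square difference of centred log2 CPM. It was PXMP2 for ACTB (0.021), MFN2 for YWHAZ (0.023), DNAAF3 for TUBB (0.028), NEDD8 for RPLP0 (0.034) and PPIA (0.035), CCDC57 for HPRT1 (0.038), SLC16A1 for GUSB (0.049) and UBL4A for TBP (0.071), out of 10965 candidates.

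Ratios between members carry no scaling, because the library's depth and its scaling factor cancel. Of the 28 pairs, 23 had ratios that did not overlap between the labels, and 8 moved at least 2-fold between label means. The share among pairs of all tested genes was not computed, so these counts have no background to stand against. Of single tested genes, 71.3% did not overlap in CPM. The pairs are built from the same 8 genes and are not independent of one another. PPIA over RPLP0 held best: its log2 ratio was -1.21 ± 0.04 in Vector and -1.17 ± 0.01 in LINC00665 libraries (SD, n = 3), a shift of 0.03. The other 4 overlapping pairs were YWHAZ over TUBB (shift 0.05), TBP over GUSB (-0.05), HPRT1 over TUBB (-0.13) and YWHAZ over HPRT1 (0.17). By these ratios the members fall into those that kept pace with one another: GUSB with TBP, PPIA with RPLP0, and YWHAZ with TUBB and HPRT1, with ACTB between the last 2 sets. No ratio of ACTB to another member overlapped between the labels, its smallest shifts being -0.46 against RPLP0 and 0.46 against YWHAZ.

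The largest shift was that of GUSB over HPRT1. Its log2 ratio went from -0.24 ± 0.22 to 1.34 ± 0.07 (SD, n = 3), a 2.98-fold change of the ratio. In FPKM as well GUSB was the lower of the pair in every Vector library and the higher in every LINC00665 library. TBP over HPRT1 moved 2.87-fold, GUSB over TUBB 2.73-fold and YWHAZ over GUSB 2.64-fold in the other direction. In the geNorm measure M, the mean SD of a gene's log2 ratios to the other members, the lowest values were 0.37 for RPLP0, 0.38 for PPIA and 0.39 for ACTB and the highest 0.54 for HPRT1 and TBP. Within a single label every M was smaller, at 0.14 to 0.33 in Vector and 0.09 to 0.16 in LINC00665 libraries.

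**Figure D3:**
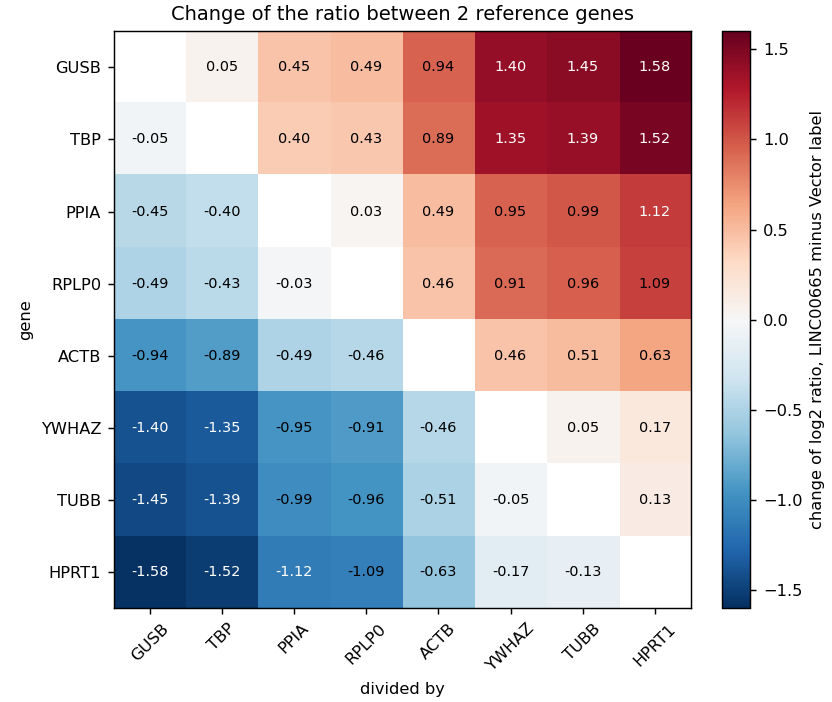
Change of the log2 ratio of the gene in each row to the gene in each column, LINC00665 minus Vector label means (n = 3 each). Pale cells are pairs that kept their ratio (PPIA and RPLP0, 0.03) and dark cells pairs that did not (GUSB and HPRT1, 1.58).

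Means over several members behaved differently from the genes in them. The mean log2 CPM of all 8, after scaling, differed by 0.03 between labels, with libraries from 8.95 to 9.10 in Vector and from 8.98 to 9.17 in LINC00665 overlapping. That of GUSB and HPRT1, the pair with the most opposed changes, differed by 0.04 and also overlapped. The pair was picked by its changes in these same libraries, so this is a description and no test. The mean of ACTB, PPIA and RPLP0, the members of smallest spread, differed by 0.20 without overlap, since PPIA and RPLP0 both were higher after this scaling. With total counts the log2 fold changes of these members were -0.28, 0.21 and 0.18 (edgeR), of opposed sign. The means were not computed on that scale, so their differences hold for trimmed-mean scaling only. The mean of YWHAZ, TUBB and HPRT1 differed by -0.65 and that of GUSB and TBP by 0.79. Each of these sets joins members that moved the same way in these same libraries. Their differences therefore follow from the grouping and are no test.

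What a choice of reference does to a target was computed for VEGFC, a growth factor of lymphatic vessels, MET, the receptor of hepatocyte growth factor, RAB27B, a GTPase of vesicle secretion, and MYC, a transcription factor. For VEGFC, from 2.56 to 54.2 mean CPM, the fold was 14.2 when read against GUSB and 42.4 when read against HPRT1, with 23.6 by edgeR's scaling. MET gave 3.42-fold against GUSB and 10.2-fold against HPRT1 (5.68 by edgeR). RAB27B gave 2.55-fold and 7.60-fold (4.08), and MYC 2.30-fold and 6.86-fold (3.98). The 4 targets were higher under the LINC00665 label against each of the 8 references, and the span is 2.98-fold for each, that of the ratio of GUSB to HPRT1. Read against ACTB they were 27.3-fold, 6.57-fold, 4.90-fold and 4.42-fold higher, and against the mean of all 8 members 24.7-fold, 5.94-fold, 4.42-fold and 3.99-fold.

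**Figure D4:**
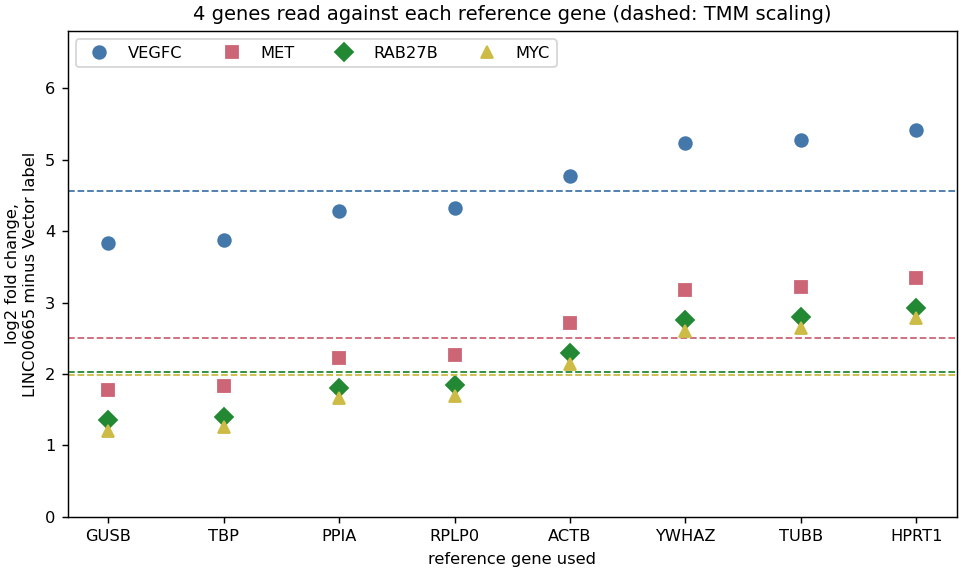
Log2 fold change, LINC00665 minus Vector label means (n = 3 each), of VEGFC, MET, RAB27B and MYC when each is divided by the reference gene on the horizontal axis. Dashed lines give the value with trimmed-mean scaling. Each target is lowest against GUSB and highest against HPRT1, and against ACTB, PPIA and RPLP0 it lies nearest to its dashed line.

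For a gene of small change the choice sets the direction. With edgeR's scaling, 51.9% of the 13552 tested genes had a higher mean log2 CPM under the LINC00665 label and the median difference was 0.05. Divided by ACTB, 56.2% were higher (median 0.17), by RPLP0 41.1% (median -0.29) and by PPIA 40.1% (median -0.32). Division by HPRT1, TUBB or YWHAZ made 77.9%, 73.8% and 72.1% of genes higher, while division by TBP or GUSB left 30.8% and 29.8%. These shares count signs only and no test.

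The 33 other genes used as references that were listed for comparison were all tested. Of these, 2 were higher, 18 were lower and 13 did not pass (60.6% passed, near the share of all genes), with a median log2 fold change of -0.53 against 0.03 over all tested genes and 0.11 over the 8 members. There were 7 of 33 that passed and reached 2-fold, which 42.0% of all tested genes did. Without the library LINC00665 1 the count that passed was 13 in place of 20. GAPDH, a glycolytic enzyme widely used as a reference, fell by 1.13 on the log2 scale, from 12951 ± 3022 to 5272 ± 882.3 CPM (SD, n = 3, edgeR adjusted p = 0.0020). B2M, the light chain of MHC class I, rose by 2.40, from 249.4 ± 28.2 to 1166 ± 258.4 CPM (edgeR adjusted p = 2.4e-05). The other largest changes were -2.59 for POLR2A, the large subunit of RNA polymerase II, 2.48 for the ribosomal protein gene RPL32 and -1.75 for REEP5, a membrane-shaping protein of the endoplasmic reticulum, each larger than that of any of the 8 members. The smallest were 0.03 for RPL13A, -0.05 for UBE2D2, 0.06 for ACTG1 and -0.08 for ALAS1, each with an interval that includes 0, and all 4 change sign under some setting: RPL13A and ACTG1 with total counts (-0.14 and -0.10), UBE2D2 and ALAS1 with a filter of 1 CPM in every library (0.03 and 0.01). UBE2D2, a ubiquitin-conjugating enzyme, had an SD of 0.06 over the 6 libraries after trimmed-mean scaling, below the 0.18 of ACTB. Its unscaled CPM was 137.8 ± 5.25 in Vector and 118.8 ± 5.58 in LINC00665 libraries (SD, n = 3), without overlap. With total counts its log2 fold change was -0.21 (edgeR adjusted p = 0.17).

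**Figure D5:**
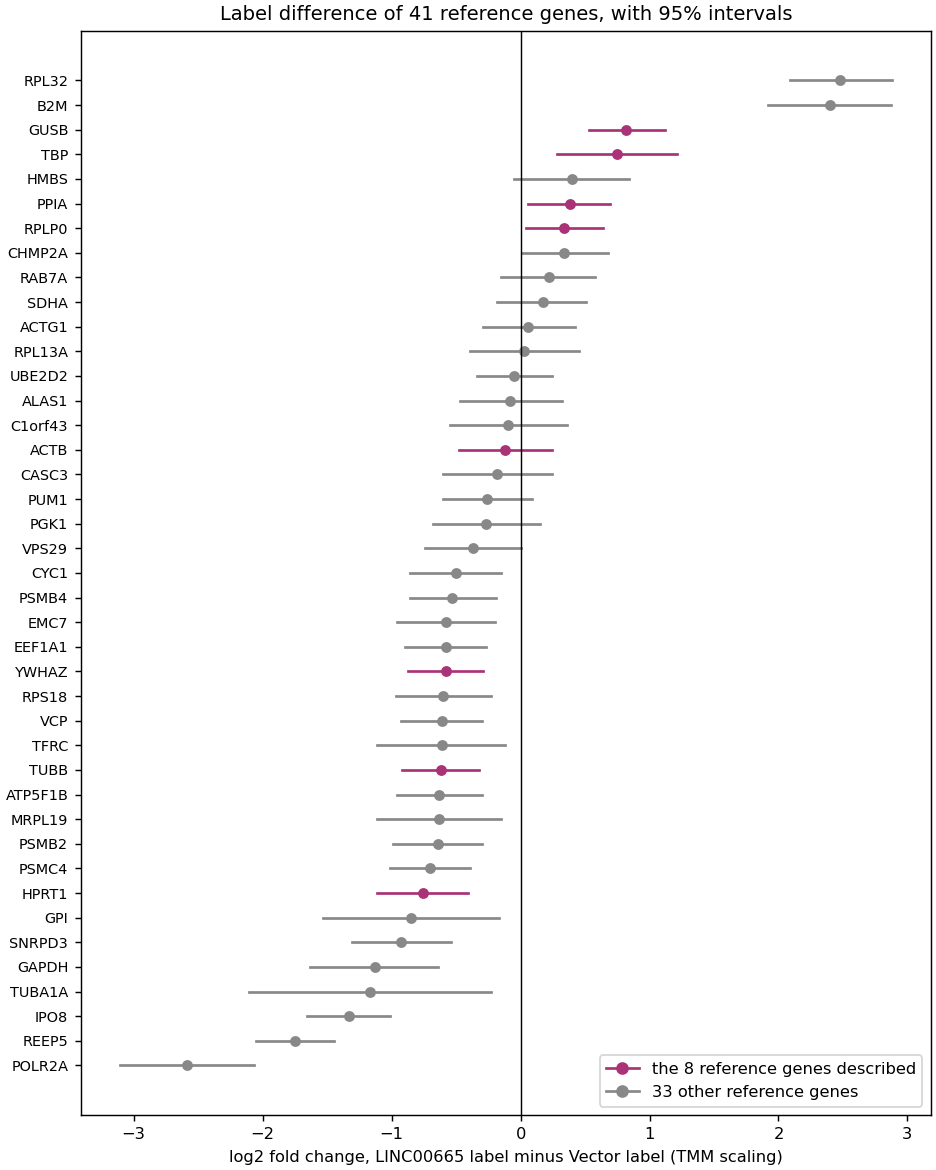
Log2 fold change, LINC00665 minus Vector label, with 95% intervals from edgeR, of the 8 reference genes described and 33 others. The 8 lie between -0.76 (HPRT1) and 0.82 (GUSB), and the others between -2.59 (POLR2A) and 2.48 (RPL32).

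Relatives of the members show whether a family moved as one. Beside ACTB, the other cytoplasmic actin ACTG1 had 5231 ± 533.3 and 4872 ± 603.8 CPM (SD, n = 3) and did not pass. The smooth muscle actin ACTA2 rose from 1.41 to 8.91 CPM (log2 fold change 2.81, edgeR adjusted p = 2.8e-05). ACTBL2 had 0 counts in the Vector libraries and 264.0 in the LINC00665 libraries, at least 78.1-fold higher against 3 counts over the group. ACTA1, ACTC1 and ACTG2 were too low to test, with 0 or 1 count in the Vector libraries. ACTG1 stood next to ACTB in level and, like it, overlapped between the labels.

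The fall of TUBB was not that of all beta-tubulins. Of 8 tested, TUBB6 (-1.75), TUBB3 (-0.97), TUBB4A (-6.11) and TUBB passed as lower, and TUBB2B (6.22) and TUBB2A (0.46) as higher (edgeR adjusted p up to 0.036). TUBB4B, the next most abundant in CPM, had a log2 fold change of 0.15, which turned to -0.01 with total counts, and TUBB1, at under 1 CPM, one of -0.98. Neither passed. The call of TUBB2A was lost under 8 of the alternatives tried, among them total counts (0.30, edgeR adjusted p = 0.12) and leaving out Vector 1 (0.086), LINC00665 2 (0.13) or LINC00665 3 (0.071). TUBB8, not tested, had 1 count in Vector libraries and a CPM ratio of 62.3 (exact 95% interval 10.8 to 2489, counting error only). The Vector libraries varied widely in TUBB4A (22.5 ± 15.6 CPM, SD, n = 3) and in TUBB2B (0.798 ± 1.02 CPM), and without the library Vector 2 the log2 fold change of TUBB2B was 8.08. The 6 of 8 that passed are 75.0%, against 63.5% of all tested genes.

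The 14-3-3 genes were as mixed. With YWHAZ, YWHAB (-1.48) and YWHAE (-0.82) were lower, the last with adjusted p = 0.045 (edgeR) and libraries that overlap between the labels, a call lost under 9 of the alternatives tried. YWHAG (0.55) and SFN (2.30), the epithelial member of the family, were higher. YWHAQ (0.22) and YWHAH (-0.15) did not pass, and YWHAH changed sign without the library Vector 3 (0.17). In all 5 of 7 passed (71.4%). In the ribosomal stalk, RPLP2 rose 1.87 on the log2 scale from 112.9 ± 1.70 to 366.3 ± 59.0 CPM (edgeR adjusted p = 3e-05), beside 0.34 for its partner RPLP0, whereas RPLP1 (0.11) did not pass and turned to -0.06 with total counts. Of 79 cytosolic ribosomal protein genes, 18 were higher, 5 were lower and 56 did not pass, with a median of 0.06. Thus 29.1% passed, against 63.5% of all tested genes. A smaller SD over the 6 libraries than that of ACTB was found for 28 of the 79, and for 1009 of the 13552 tested genes.

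In the remaining groups the members were not at the extremes, and the shares that passed are to be read against the 63.5% of all tested genes. Of 16 cyclophilins, 2 were higher and 5 were lower (43.8% passed), with PPIF (1.22) and PPIG (-1.11) moving most and PPIA at 0.38. The call of PPIF, the mitochondrial cyclophilin, was lost without Vector 1 (adjusted p = 0.079) and without LINC00665 2 (0.11). Of 11 tested genes of purine salvage and recycling, 6 were higher and 2 were lower (72.7% passed), HPRT1 among the latter. GDA, which deaminates guanine, had the largest change of these (11.13, from 0.250 to 518.0 CPM), followed by XDH, which oxidises hypoxanthine (3.89, from 3.98 to 52.6 CPM). Among 19 tested genes of TBP relatives and TFIID subunits, 6 were higher, TBP among them, and 9 lower (78.9% passed), led by TAF9B (-2.44) and TAF9 (-1.47). Of 25 lysosomal glycan hydrolases, 9 were higher, GUSB among them, and 10 lower (76.0% passed). HEXA, a subunit of beta-hexosaminidase, had 10.0 counts in Vector and 5528 in LINC00665 libraries, a CPM ratio of 490.8 (exact 95% interval 266.7 to 1024). GALC had 1 count and 400.0 counts, a ratio of 355.1 (63.4 to 14061), both intervals for counting error only.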

How the data were processed

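Per the file headers, the single table that the authors deposited gives 20289 genes, each with an expected count for every library, unscaled, of which 88.3 to 89.4% are whole. It also holds FPKM, which per the file headers the authors had corrected for transcript length and depth. HISAT2 2.0.4 and the build hg38 stand in the submitters' processing notes. No source used here states the counting tool, its annotation or whether strand was used, and reads of overlapping or antisense genes cannot be told apart. The labels' protocols name TRIzol extraction and an Illumina TruSeq kit. GENCODE v29 (GRCh38, the assembly of hg38) held 20171 of the identifiers, 19801 as protein-coding, and gives the members' coordinates.

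The test was edgeR 4.0.16 in R 4.3.3 (glmQLFit, glmQLFTest, no covariate) on expected counts rounded to integers, after filterByExpr and trimmed mean of M-values (TMM) scaling, LINC00665 minus Vector label, 3 against 3 libraries. P-values were adjusted by Benjamini-Hochberg over 13552 genes, with a threshold of 0.05. The SE of a log2 fold change was derived from the F statistic. CPM divides by the total expected count. SDs of log2 CPM used trimmed-mean scaling and a prior count of 2. Pair ratios, geNorm M and targets were computed from CPM, and index means from scaled log2 CPM. FPKM was tested with limma-trend 3.58.1 on log2(FPKM + 1). Such fold changes understate the change of low genes. DESeq2 1.42.0 was an alternative. Exact permutation tests used scipy 1.17.1, and figures matplotlib 3.10.9. On simulated data with 13552 genes and 200 changed, the edgeR test recovered 41% of 2-fold and 96% of 4-fold changes. In that simulation 7.43% of calls were false and 95.5% of the 95% intervals held the true value. The simulation gave each gene the same dispersion under both labels. In the data the biological coefficient of variation was 28.6% in Vector and 12.8% in LINC00665 libraries, and 63.5% of tested genes were called. The simulated rates thus need not hold for this comparison.

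The members and the gene lists were chosen with earlier results of these data known. All 8 members are named, with GAPDH, B2M and the 4 smallest and 4 largest changes of the other reference genes, all actins, beta-tubulins, 14-3-3 and stalk genes, and the 2 largest changes of the cyclophilin, purine, TFIID and lysosomal lists. The rule also took the 2 smallest of those lists, which are not reported here. One gene of the list of other reference genes is not reported here and was taken out of that list. Added to these are the gene nearest in profile to each member (mean of at least 5 CPM), the 5 least varying genes of at least 50 CPM and the 4 targets. A bound against 0 counts uses 3 counts over the group, and ratios from 1 to 10 counts have exact binomial intervals. Libraries of 1 label differed by more than sampling noise (chi-square per degree of freedom 10.2 to 120), so none was treated as another deposited again; this does not show that they are independent. P-values measure the spread between these libraries, which the labels give as independent experiments. Genes used to check for mixed-up samples were fitted with the rest but are left out of the text. Alternatives were other scalings, filters, tools, FPKM, the replicate number as a block, a threshold of 0.01 and leaving out each library.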

Additional observations from a re-analysis of the deposited data

How the results depend on the processing

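Without 1 library in turn, 4 to 6 of the 8 members were called, with 4 without LINC00665 2, and at an adjusted p of 0.01 (edgeR) 4 members and 12 of the other reference genes. Of the latter 13 to 21 were called without 1 library, with 13 without LINC00665 1. Of 128 alternative values of the members' log2 fold changes, 104 kept direction and side of the threshold, 23 lost the call (10 of them PPIA, 12 RPLP0, 1 TBP) and 1 reversed (ACTB). Of 793 for other named genes, 723 kept both, 23 lost a call, 1 gained one and 46 reversed. Replicate numbers are shared in name only: deviations of same-numbered libraries from their label means correlated at 0.152, -0.132 and -0.154 over genes, and not every library correlated best with its own number. With the replicate block 7924 genes and 5 members were called, with PPIA (adjusted p = 0.091) and RPLP0 (0.094) not among them. Genes of small change reversed sign. Leaving out 1 library moved the log2 fold change of ACTB from -0.23 to 0.00, RPL13A from -0.12 to 0.13, ACTG1 from -0.06 to 0.16, ALAS1 from -0.22 to 0.03, YWHAH from -0.33 to 0.17, RPLP1 from -0.07 to 0.18, CDK11B from -0.00 to 0.07, TMEM230 from -0.02 to 0.05 and LSM12 from -0.03 to 0.05. With total counts the values were -0.14 for RPL13A, -0.10 for ACTG1, -0.01 for TUBB4B, -0.06 for RPLP1, -0.11 for CDK11B, -0.14 for TMEM230 and -0.14 for LSM12. Upper quartile factors gave -0.04 for RPL13A, -0.01 for ACTG1, -0.02 for CDK11B, -0.05 for TMEM230 and -0.05 for LSM12. On log2(FPKM + 1) and log2(FPKM + 0.1) they were -0.13 and -0.13 for RPL13A, -0.10 and -0.10 for ACTG1, -0.00 and -0.00 for TUBB4B, -0.10 and -0.10 for RPLP1, -0.07 and -0.08 for CDK11B, -0.14 and -0.14 for TMEM230 and -0.16 and -0.17 for LSM12. The filter of 1 CPM in every library gave 0.03 for UBE2D2, 0.01 for ALAS1, 0.06 for TXNL1 and 0.07 for DDX5, and DESeq2 and its size factors in edgeR each gave 0.01 for TXNL1 and 0.02 for DDX5. Scaling by total counts moved the median over all tested genes from 0.03 to -0.13, and the cause of the other reversals was not tested. Between labels of 3 libraries, the 95% interval of even the steadiest gene, TXNL1, ran from -0.30 to 0.27.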
